A study of Mus musculus with 10 samples.

Results

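Neurofilament and neural outgrowth genes were followed across mouse bone marrow stromal cells, the lineage cells made from them and reprogrammed populations. The set was a list of 10 genes: Nefm, Nefl, Nefh, Ina, Basp1, Gap43, Nrn1, Stmn2, Megf10 and Cadm1. It was assembled because Nefm and Basp1 stood above the undifferentiated cells in the reprogrammed populations, so that contrast chose the genes and is described below without a test. By the array annotation, 9 of the 10 genes had a probe, with 15 probes in all, among 45281 probes and 19057 named genes on the array. No probe carried the symbol Nefh, the heavy neurofilament subunit.

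RNA of 10 samples was hybridised, 1 sample per Illumina mouse bead array. The populations were reprogrammed adipocytes, reprogrammed chondrocytes and reprogrammed osteocytes (1 array each), set against differentiated adipocytes, chondrocytes and osteocytes (1 array each) and against undifferentiated mesenchymal stem cells (MSC, 2 arrays). Treated in vivo derived osteocytes (1 array) were set against untreated in vivo derived osteocytes (1 array). All samples carry the strain label C57BL/6J and the same source label, adult bone marrow MSC. The reprogramming agents, the treatment, the animals' age and sex, and whether the MSC arrays came from separate cultures are not given in the sources used here, so p-values measure only the spread between these samples.

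Neurofilaments are the intermediate filaments of nerve cells. Their light (Nefl), medium (Nefm) and heavy (Nefh) subunits and alpha-internexin (Ina) assemble together and fill large axons. Basp1 and Gap43 encode related membrane-bound phosphoproteins of the growth cone, which bind calmodulin and phosphoinositides and organise cortical actin. Nrn1 (neuritin) is a GPI-anchored protein induced by neural activity that promotes neurite growth, and Stmn2 is a stathmin that destabilises microtubules in growing axons. Megf10 is a surface receptor for engulfment of apoptotic material in astrocytes and also acts in muscle satellite cells. Cadm1 is an immunoglobulin-family adhesion molecule of synapses that many epithelial and mast cells carry as well.

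The 2 promoters of the set held by the sequence table are shown because one belongs to Basp1, one of the genes on which the set was chosen, and the other to Ina, whose transcript was detected on no array. Each is the 250 bases before the gene start, from RefSeq on build GRCm38.p6, written along the gene's strand, with capitals marking the GC box core GGGCGG or its complement CCGCCC. The Basp1 window is chr15:25413765-25414014 on the minus strand, and the Ina window is chr19:47014431-47014680 on the plus strand.
Basp1: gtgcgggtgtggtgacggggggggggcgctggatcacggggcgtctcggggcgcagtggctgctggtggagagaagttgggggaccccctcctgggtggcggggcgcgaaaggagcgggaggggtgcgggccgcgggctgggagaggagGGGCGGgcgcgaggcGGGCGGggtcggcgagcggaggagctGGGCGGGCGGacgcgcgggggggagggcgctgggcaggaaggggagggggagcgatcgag
Ina: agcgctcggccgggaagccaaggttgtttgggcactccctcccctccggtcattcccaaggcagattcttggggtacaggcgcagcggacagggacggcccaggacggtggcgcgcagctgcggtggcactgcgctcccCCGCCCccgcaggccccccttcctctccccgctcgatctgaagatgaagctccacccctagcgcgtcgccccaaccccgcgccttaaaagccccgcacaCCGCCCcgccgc
Basp1 had 4 GC box cores, 2 of which overlap, and Ina had 2, while 32.7% of 32851 promoter windows of this length held at least 1. GC content was 78.8% for Basp1 and 70.8% for Ina, against a median of 52.4% over all windows, and CpG dinucleotides numbered 30 and 25, against a median of 6. On both strands neither window held TATAAA (12.4% of all windows did), CCAAT (33.8%), CACGTG (6.02%), TGANTCA (6.75%) or TGACGTCA (1.55%). These matches describe the letters of the windows only.

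All levels below are background-corrected, quantile-normalised intensities on the log2 scale, and a probe counted as detected where its detection p was under 0.01. Detected probes numbered 14896 to 16737 per array. Of the 15 probes, 11 were detected on at least 1 array, 9 on at least 2 and only the Nrn1 probe on all 10, while 49.0% of all probes were detected on at least 1. The lowest level of a detected probe lay between 5.36 and 5.78 on these arrays, so values near or under 5 carry no order. Levels of different probes are not compared with each other.

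Nefm had 3 probes and was high in the reprogrammed populations on each. The brightest, ILMN_2938820, read 8.99 in reprogrammed adipocytes, 8.75 in reprogrammed chondrocytes and 8.17 in reprogrammed osteocytes. It read 5.08 in differentiated adipocytes and 5.02 in differentiated chondrocytes, both not detected, and 5.70 in differentiated osteocytes. In MSC it read 5.22 on array 1, not detected, and 6.89 on array 2. The 3 reprogrammed arrays stood above all 5 of these others with no overlap, and the array next below them was MSC 2. Treated in vivo osteocytes were at 4.61, not detected, and untreated in vivo osteocytes at 5.79.

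In the deposited intensities, before any further normalisation, the 3 reprogrammed arrays were also the highest, with MSC 2 next. The differentiated osteocytes, on an array of lower overall scale, were then the lowest of the differentiated cells and below MSC 1, where the normalised values have them above both other differentiated arrays and MSC 1. ILMN_2938820 had 623, 537 and 321 in reprogrammed adipocytes, chondrocytes and osteocytes, against 109, 107 and 96.7 in the differentiated cells and 113 and 201 in MSC 1 and MSC 2. The second Nefm probe, ILMN_2632416, read 7.81, 7.66 and 6.91 in the reprogrammed adipocytes, chondrocytes and osteocytes, against 4.49, 4.74 and 5.40 in the differentiated cells and 4.81 and 5.84 in MSC 1 and MSC 2. Outside the reprogrammed arrays it was detected only on MSC 2. The dimmest, ILMN_1225279, was detected on the reprogrammed adipocyte (6.64) and chondrocyte (6.50) arrays and missed the threshold on the reprogrammed osteocyte array (5.39). Across the 10 arrays the 3 probes correlated at r = 0.94 to 0.99, a description of arrays that share 1 normalisation.

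The other neurofilament genes did not share this pattern. Nefl read 4.64, 4.48 and 4.67 in reprogrammed adipocytes, chondrocytes and osteocytes, none detected. It was detected only in differentiated adipocytes, at 5.78 with a detection p of 0.0096, which is the lowest level of any detected probe on that array. Ina lay between 4.32 and 4.99 on all 10 arrays and was detected on none, with a lowest detection p of 0.076 on MSC 1. A signal of the medium subunit was therefore measured with no detectable signal of the light subunit or of alpha-internexin on the same 3 arrays. Nefl and Ina had 1 probe each, and a single undetected probe does not show that a transcript is absent. Nefh was not analysed here.

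Basp1, with 1 probe, was low but detected on every reprogrammed array. It read 6.46, 6.31 and 6.19 in reprogrammed adipocytes, chondrocytes and osteocytes. In the differentiated cells it read 4.42, 4.87 and 4.91, none detected, and in MSC it read 5.68 on array 1, detected, and 5.04 on array 2. The reprogrammed arrays again stood above the other 5 with no overlap, but here the array next below them was MSC 1 and not MSC 2. The in vivo osteocytes were at 4.91 treated and 5.37 untreated, not detected on either.

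Gap43, the growth cone relative of Basp1, was detected on 2 arrays, treated in vivo osteocytes (6.45) and reprogrammed adipocytes (5.76). Reprogrammed chondrocytes (5.30) and osteocytes (5.26) missed the threshold, with detection p of 0.015 and 0.022, and untreated in vivo osteocytes (5.30) missed it at 0.015. The differentiated cells read 4.54, 4.61 and 4.82 and the MSC 4.63 and 4.82, none detected. Its highest level was thus on an array where Basp1 was not detected.

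Nrn1 was bright everywhere and split the arrays by another line. It read 12.28, 12.27 and 12.81 in reprogrammed adipocytes, chondrocytes and osteocytes, 12.59 in treated in vivo osteocytes, and 12.39 and 12.70 in MSC 1 and MSC 2. In the differentiated adipocytes, chondrocytes and osteocytes it read 10.03, 9.78 and 10.55, and in untreated in vivo osteocytes 9.55. The 6 high arrays lay within 12.27 to 12.81 and neighbours within that band differed by less than the SD of the reprogrammed arrays (0.31, n = 3). The 4 low arrays, all of lineage cells that were neither reprogrammed nor treated, lay at 9.55 to 10.55, with no overlap.

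Stmn2 had 2 probes. ILMN_1253304 was detected only in untreated in vivo osteocytes (5.42), just under the threshold, and ILMN_1228563 was detected nowhere.

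Megf10 had 4 probes, of which 2 were detected on no array. The brighter of the others, ILMN_2689931, read 8.17, 9.34 and 7.60 in reprogrammed adipocytes, chondrocytes and osteocytes. The differentiated adipocytes (4.46) and osteocytes (4.64) did not pass detection, while differentiated chondrocytes read 6.54. MSC read 6.09 on array 1 and 8.54 on array 2. Within each lineage the reprogrammed array was the higher one, and chondrocytes were the highest of both classes. The MSC arrays, 2.45 apart, spanned most of the range between the classes. The in vivo osteocytes read 6.60 treated and 7.28 untreated. The other detected probe, ILMN_2840286, followed it over the 10 arrays at r = 0.98. The undetected probes, ILMN_1214887 and ILMN_2531292, did not show the gene on any array, so the Megf10 values rest on 2 of its 4 probes.

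Cadm1, with 1 probe, was detected on 4 arrays. It read 10.86 in untreated in vivo osteocytes, 9.70 in differentiated chondrocytes, 7.31 in reprogrammed chondrocytes and 5.54 on MSC 2. It was not detected in reprogrammed adipocytes (4.78), reprogrammed osteocytes (5.20), treated in vivo osteocytes (5.05), differentiated adipocytes (4.54), differentiated osteocytes (4.55) or MSC 1 (4.84). High levels stood on single arrays of different classes rather than on 1 class.

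**Figure D1:**
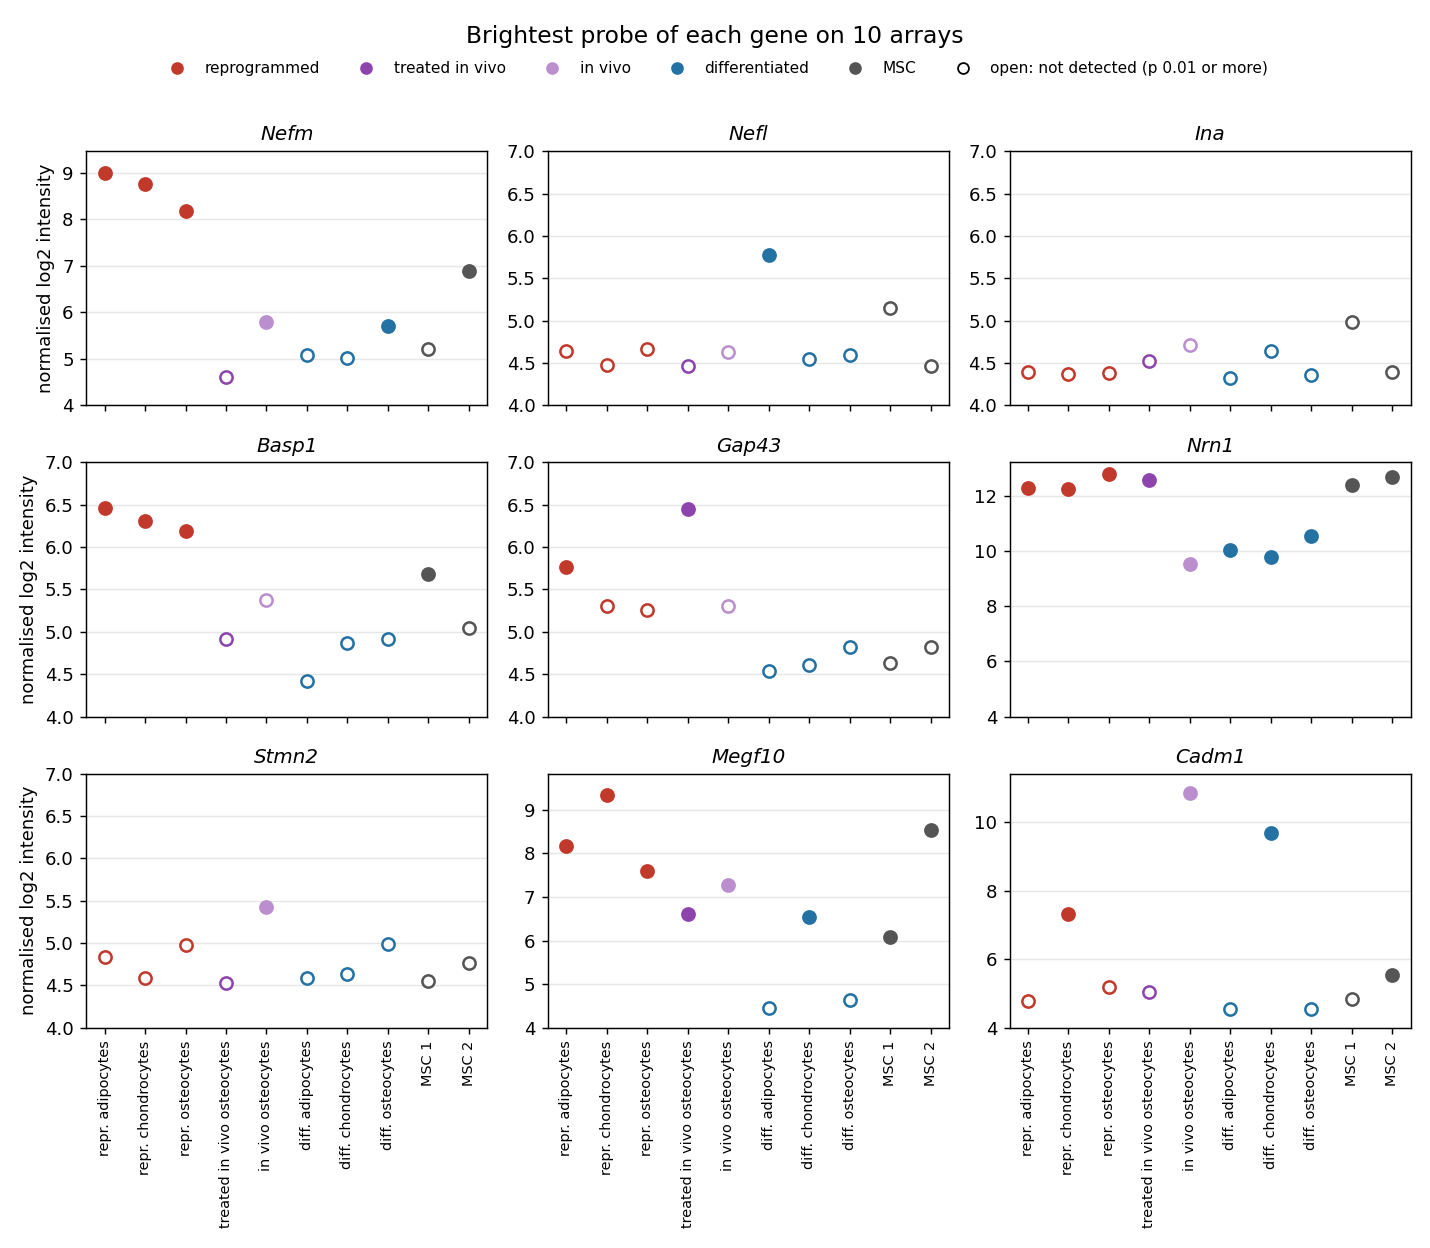
Normalised log2 intensity (vertical axis) of the brightest probe of each gene on each of the 10 arrays (horizontal axis), with filled symbols for arrays where the probe was detected and open symbols for the others. Nefm and Basp1 are highest on the 3 reprogrammed arrays, Nrn1 lies at 12.27 to 12.81 on 6 arrays and at 9.55 to 10.55 on 4, and Ina is open on all 10.

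The first tested comparison asked which genes differed between reprogrammed cells and the differentiated cells of the same lineage. Among the genes of the set, Megf10, Nefm, Nrn1 and Basp1 had higher values in all 3 reprogrammed arrays, and Cadm1 had no common direction. Only Megf10 passed the threshold, on 1 of its 2 tested probes, and by little (limma adjusted p 0.047, against 0.054 for Nefm). The test was limma with lineage as a block on 6 arrays, 3 pairs with 2 residual degrees of freedom, two-sided and adjusted by Benjamini-Hochberg over 17728 probes detected on at least 2 of the arrays. Adjusted p under 0.05 was reached by 24 probes upward (0.135%) and 25 downward (0.141%), or 0.276% in either direction, and 1 of the 8 tested probes of the set was among those that rose. The smallest adjusted p of any probe was 0.034. Since this comparison shares the reprogrammed arrays with the contrast on which Nefm and Basp1 were picked, their values here are not independent of that choice.

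Megf10 averaged 8.37 ± 0.89 in the reprogrammed and 5.21 ± 1.15 in the differentiated cells (SD, n = 3 each) on ILMN_2689931. The change was 3.16 ± 0.37 (SE) on the log2 scale, with a limma adjusted p of 0.047, and was 3.71 in the adipocyte, 2.80 in the chondrocyte and 2.96 in the osteocyte pair. Because 2 of the 3 differentiated arrays lacked the signal, the fold is a lower limit, at least 5.34, taken against the lowest detected level of each such array. The probe met the detection filter through the reprogrammed arrays, where it was high. The second probe, ILMN_2840286, differed by 2.42 ± 0.35 (SE) with a limma adjusted p of 0.058, so the probes had the same direction and stood on either side of the threshold. The call on ILMN_2689931 also ended, with the value still positive, without background correction (1.77, adjusted p 0.109), with an offset of 50 (2.30, 0.074), without a detection filter (0.195), at a detection p under 0.05 (0.0587), without the lineage block (0.0652) and with the in vivo pair added (2.20, 0.172).

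Nefm on ILMN_2938820 averaged 8.63 ± 0.42 in the reprogrammed and 5.27 ± 0.38 in the differentiated cells (SD, n = 3 each). The fitted difference was 3.37 ± 0.42 (SE), at least 8.00-fold, with a limma adjusted p of 0.054. It was 3.91 in the adipocyte pair, 3.73 in the chondrocyte pair and 2.47 in the osteocyte pair. The adjusted p moved under 0.05 in 4 of 11 alternatives. These were no lineage block (0.0215), detection on at least 3 of the 6 arrays (0.0426), no adipocyte pair (0.0337) and no osteocyte pair (0.0282). It stayed above in the others, among them no background correction (0.109), an offset of 50 (0.074), no detection filter (0.2) and the in vivo pair added (0.208). The other Nefm probes differed by 2.58 ± 0.45 (SE, limma adjusted p 0.071, at least 3.67-fold) and by 1.73 ± 0.40 (SE, limma adjusted p 0.11, at least 1.51-fold).

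Nrn1 averaged 12.45 ± 0.31 in the reprogrammed and 10.12 ± 0.39 in the differentiated cells (SD, n = 3 each), a difference of 2.33 ± 0.34 (SE) with a limma adjusted p of 0.058. It was the most even of the 8 tested probes over the pairs, at 2.25, 2.49 and 2.26 in adipocytes, chondrocytes and osteocytes, and was measured on both sides of each. Its adjusted p was 0.0469 with detection on at least 3 of the 6 arrays and 0.0326 without the lineage block. These were 2 of 11 alternatives, and it stayed above 0.05 in the others, up to 0.195 without a detection filter.

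Basp1 averaged 6.32 ± 0.14 in the reprogrammed and 4.73 ± 0.27 in the differentiated cells (SD, n = 3 each). The difference was 1.58 ± 0.36 (SE), at least 1.67-fold, with a limma adjusted p of 0.11, and the pairs gave 2.04, 1.43 and 1.28. Cadm1 differed by -0.50 ± 0.63 (SE, limma adjusted p 0.70), made of 0.24 in adipocytes, -2.39 in chondrocytes and 0.66 in osteocytes, of which only the chondrocyte arrays detected the probe. Gap43 was detected on 1 of the 6 arrays and was not tested. Its difference was 0.79, with 1.22, 0.69 and 0.44 in the pairs.

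The Nefm, Basp1 and Megf10 probes met the filter of 2 arrays through the reprogrammed arrays alone, where they were high, with at most 1 differentiated array detected, so the following counts are descriptions. At an unadjusted p under 0.05 stood 7 of the 8 tested probes, all higher in reprogrammed cells, where 11.9% of all tested probes were. These are 3 probes of Nefm, 2 of Megf10 and 1 each of Nrn1 and Basp1, and probes of the same gene are not independent. The lowest reprogrammed array stood above the highest differentiated array for the same number, 7 probes, against 16.1% of all tested probes. The median difference was 2.38 over the 8 probes and 0.10 over all tested probes. In these bulk samples, fewer cells of a type and less RNA per cell cannot be told apart.

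**Figure D2:**
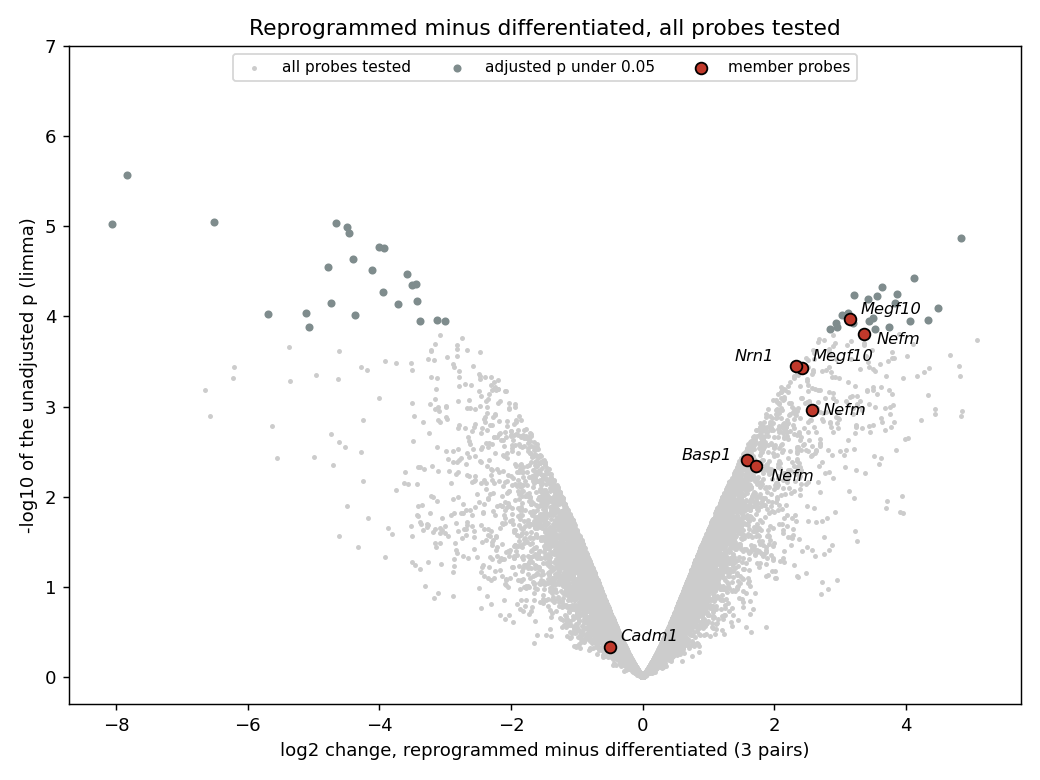
Each point is 1 of 17728 probes tested, with the log2 change, reprogrammed minus differentiated, on the horizontal axis and -log10 of the unadjusted limma p on the vertical axis. Dark grey points passed an adjusted p of 0.05 and red points are the 8 tested probes of the set. Of the red points, 7 lie between 1.58 and 3.37 and Cadm1 lies at -0.50.

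**Figure D3:**
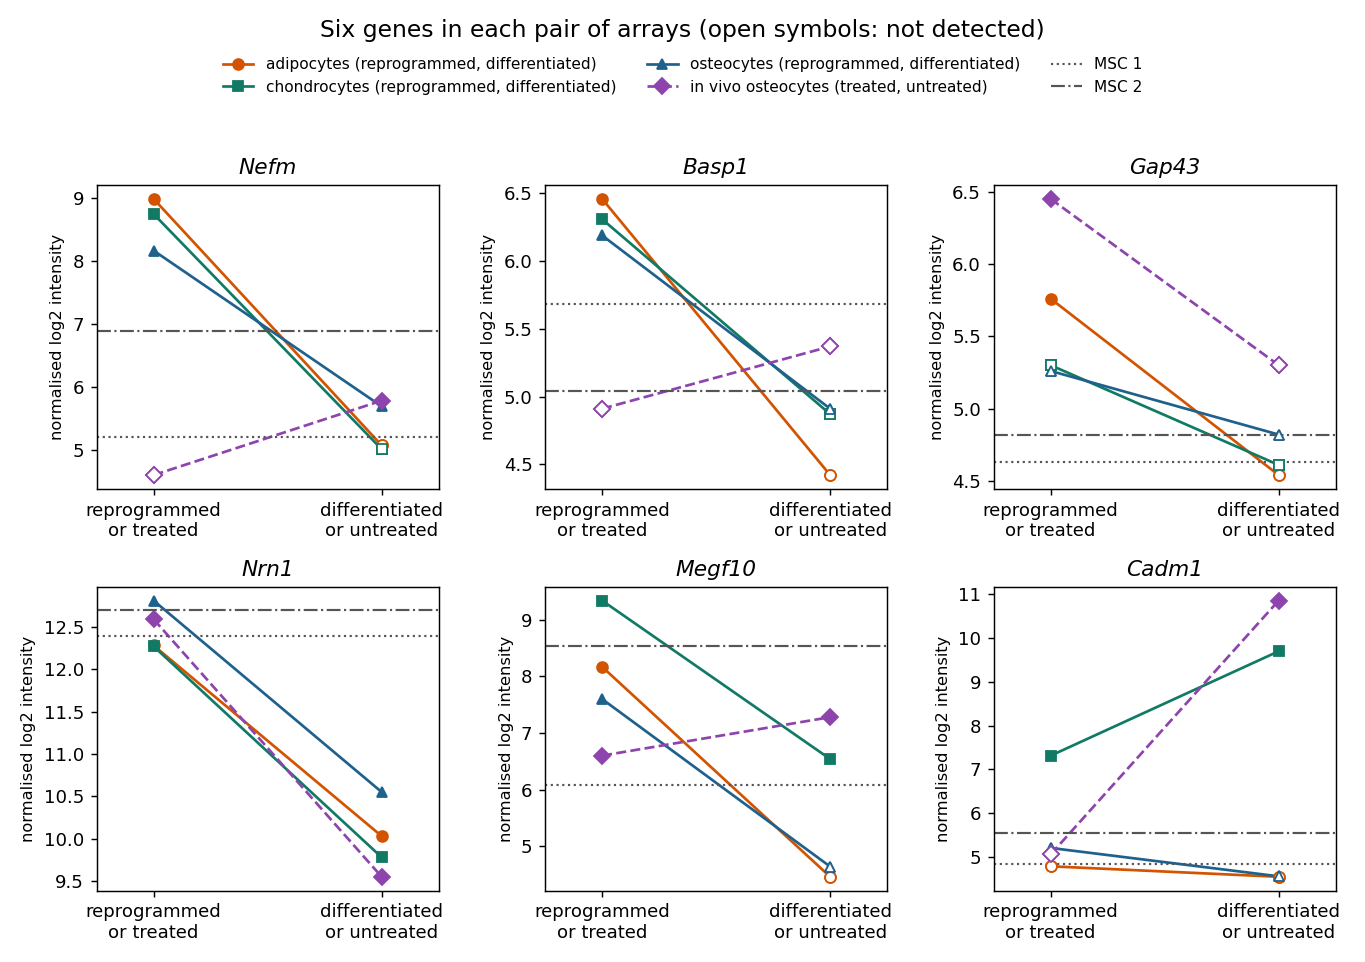
Normalised log2 intensity of 6 genes on the reprogrammed or treated array (left) and the differentiated or untreated array (right) of each lineage, joined by a line for each pair, with horizontal lines at MSC 1 and MSC 2 and open symbols where the probe was not detected. The Nrn1 lines fall to the right in all 4 pairs, by 2.25 to 3.04, while in Nefm and Megf10 the in vivo line runs opposite to the other 3.

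The comparison of differentiated cells with MSC asked what changed on the way into the lineages. No gene of the set passed the test. The limma fit of 8 arrays (3 differentiated, 3 reprogrammed and 2 MSC) with 5 residual degrees of freedom tested 18131 probes, of which 3 rose (0.0165%) and 0 fell (0%) at an adjusted p under 0.05. At an unadjusted p under 0.05, 1002 probes were lower in differentiated cells (5.53%), 2 of the 8 tested probes of the set among them. Those are Nrn1 and Megf10 (ILMN_2689931), named after their values were seen.

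Nrn1 averaged 10.12 ± 0.39 in differentiated cells (SD, n = 3) and 12.55 ± 0.22 in MSC (SD, n = 2), a difference of -2.43 ± 0.36 (SE) with a limma adjusted p of 0.12. Its difference lay between -2.64 and -2.26 under every alternative run. Megf10 averaged 5.21 ± 1.15 in differentiated cells (SD, n = 3) and 7.32 ± 1.74 in MSC (SD, n = 2), with differences of -2.10 ± 0.89 and -1.17 ± 0.75 (SE) on its 2 detected probes and limma adjusted p of 0.57 and 0.72. Basp1 differed by -0.63 ± 0.34 (SE, limma adjusted p 0.66) and Cadm1 by 1.07 ± 1.48 (SE, limma adjusted p 0.88).

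Nefm on ILMN_2938820 differed by -0.79 ± 0.53 (SE, limma adjusted p 0.72), and this rested on MSC 2. Without that array the difference was 0.04, and that of ILMN_2632416 was 0.07, against -0.45 with it. On ILMN_1225279 the difference of -0.22 became 0.00 when arrays were scaled to their 75th percentile. The highest differentiated array stood below the lowest MSC array for 3 of the 8 probes, against 13.7% of all tested probes. Of these only Nrn1 was detected on the arrays compared, while Nefm ILMN_1225279 was detected on none of the 5 and Basp1 only on MSC 1, so their order carries no weight.

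The contrast that chose the set, reprogrammed cells against MSC, is given as values. Nefm on ILMN_2938820 averaged 8.63 ± 0.42 in reprogrammed cells (SD, n = 3) and 6.06 ± 1.18 in MSC (SD, n = 2), a difference of 2.58, at least 5.27-fold. It was 3.41 against MSC 1 and 1.74 against MSC 2. The lowest reprogrammed array stood 1.27 above the higher MSC array. The other Nefm probes differed by 2.13 and 1.51.

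Basp1 averaged 6.32 ± 0.14 in reprogrammed cells (SD, n = 3) and 5.36 ± 0.45 in MSC (SD, n = 2), a difference of 0.95, at least 1.67-fold. It was 0.63 against MSC 1 and 1.27 against MSC 2, and without background correction it was 0.37. Its lowest reprogrammed array stood 0.50 above the higher MSC array. Just outside the choice lay Gap43, whose corresponding gap was 0.44 with 1 of the 3 reprogrammed arrays detected.

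Megf10 (1.05 on ILMN_2689931) and Cadm1 (0.57) were above the MSC mean with overlapping arrays, and Nrn1 (-0.10) was at the MSC level. The Megf10 difference was 2.28 against MSC 1 and -0.17 against MSC 2. In all, 4 of the 8 tested probes, 3 of Nefm and 1 of Basp1, had every reprogrammed array above both MSC arrays, as had 7.42% of all tested probes. Only 2 probes of 18131 (0.011%) were detected and at least 2-fold above both MSC arrays on all 3 reprogrammed arrays, and both belong to Nefm. Nothing is read from these counts, since the set was chosen on them.

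Each population was also set against both MSC arrays at 2-fold, with detection on the higher side. Here and in the next paragraph, shares of all probes are over those detected on at least 1 of the arrays compared, 17495 to 19088. For the reprogrammed populations this is again the contrast that chose Nefm, so nothing is read from its counts beside the shares. The 3 Nefm probes are also not independent of each other. In reprogrammed adipocytes the 3 Nefm probes were higher, where 0.194% of all probes were. In reprogrammed chondrocytes the 3 Nefm probes and Cadm1 were higher (0.389% of all), and in reprogrammed osteocytes 2 Nefm probes (1.57% of all). These counts use the normalised values as they stand, and against the lowest detected level of the MSC arrays ILMN_1225279 was at least 1.96-fold higher in reprogrammed chondrocytes, short of 2-fold. No probe of the set was lower in reprogrammed adipocytes, chondrocytes or osteocytes, where 0.857%, 0.584% and 0.542% of all probes were.

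Differentiated adipocytes and osteocytes each had Nrn1 and Megf10 (ILMN_2689931) lower, against 9.56% and 3.21% of all probes, and none higher, against 9.97% and 4.33%. Differentiated chondrocytes had Cadm1 higher (12.9% of all) and Nrn1 lower (11.6% of all). Untreated in vivo osteocytes also had Cadm1 higher (11.6% of all) and Nrn1 lower (10.0% of all). Treated in vivo osteocytes had Gap43 higher (8.60% of all) and none lower (7.68% of all). Gap43 was detected on neither MSC array, and its lower limit there was 1.89-fold. These are single arrays with no replicate check.

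The treated and untreated in vivo osteocytes form a pair of 1 array each and are compared without a test. Nrn1 read 12.59 in treated and 9.55 in untreated cells, a difference of 3.04, or 8.20-fold. Gap43 read 6.45 in treated and 5.30 in untreated cells, at least 2.04-fold higher, and Cadm1 read 5.05 in treated and 10.86 in untreated cells, at least 43.6-fold lower. Nefm on ILMN_2938820 read 4.61 in treated and 5.79 in untreated cells, at least 1.30-fold lower, so that its 2-fold difference rests on an undetected value, and its other probes were detected on neither array.

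Of 18553 probes detected on at least 1 array of this pair, 17.6% were at least 2-fold higher and 16.1% at least 2-fold lower in treated cells. Changes of this size were thus common. Megf10 differed by -0.68 and -0.24 on its 2 detected probes and Basp1 was detected on neither array. Nrn1 had the direction it had in the 3 reprogrammed pairs, while Nefm and Megf10 had the opposite one.

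Levels of other cell types' markers were read on the same arrays. Of 15 neuronal markers, 12 were detected on no array, among them Rbfox3, Snap25, Dcx, Tubb3 and Elavl3, and 0 to 2 were detected on any array. Their summed linear level was 486 to 517 on the reprogrammed, 388 to 494 on the differentiated and 446 to 459 on the MSC arrays. Syn1, which coats synaptic vesicles, was the one neuronal marker detected on the 3 reprogrammed arrays, at 6.98, 7.46 and 7.08, against 5.42, 6.17 and 5.06 in the differentiated cells and 6.34 and 6.73 in MSC. It was detected on 7 arrays in all, and read 7.24 in untreated and 5.32 in treated in vivo osteocytes. Of 7 Schwann cell and glial markers, 5 were detected nowhere, Sox10 and Gfap among them, and of 6 satellite cell markers 5 were, Pax7 and Myod1 among them. Mbp, a myelin gene, was detected on 8 arrays and Des, a muscle filament, on 5. The part of such cells in the Nefm and Megf10 values was not tested beyond these levels.

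Cell cycle genes stood higher in the reprogrammed than in the differentiated cells, as the Nefm, Nrn1 and Megf10 values did, and on the MSC arrays they overlapped the reprogrammed ones, as Nrn1 and Megf10 did and Nefm did not. The 20 with a probe summed to 21300 to 37100 on the reprogrammed, 3270 to 8960 on the differentiated and 15600 to 32700 on the MSC arrays, and 18 of them were detected somewhere. The median log2 level was 10.64, 10.74 and 9.83 on the reprogrammed adipocyte, chondrocyte and osteocyte arrays, against 5.71, 6.22 and 7.87 on the differentiated arrays. MSC 1 stood at 8.80 and MSC 2 at 10.55, the order that Nefm, Nrn1 and Megf10 had between these arrays and Basp1 did not. Treated in vivo osteocytes stood at 10.11 and untreated ones at 7.99. Nrn1 differed the same way there (12.59 and 9.55), and Nefm and Megf10 the other way. The part of dividing cells in these values was not tested.

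Macrophage markers stood beside Cadm1. All 11 with a probe were detected in untreated in vivo osteocytes, at a median of 13.23, and in differentiated chondrocytes, at 12.98. These are the arrays with the highest Cadm1, 10.86 and 9.70. On the other 8 arrays 1 to 3 of the 11 were detected, at medians of 4.54 to 4.91. Among those 8 were the reprogrammed chondrocytes, with Cadm1 at 7.31, 3 of 11 detected and a median of 4.57. The part of macrophage RNA in the Cadm1 values was not tested. The lineage labels were read against their own markers. All 6 adipocyte markers with a probe were detected in differentiated adipocytes, with Adipoq at 14.70. Of 8 cartilage markers, 3 were detected in differentiated chondrocytes, the number also detected on the reprogrammed osteocyte and MSC 1 arrays. The matrix gene Comp stood at 13.77 in differentiated chondrocytes and at 4.38 and 4.42 in MSC 1 and MSC 2. Col2a1 was at 8.28 there, between MSC 1 (7.82) and MSC 2 (9.48) and under the reprogrammed adipocytes (11.09), chondrocytes (10.38) and osteocytes (10.31). Sox9 was at 9.41, between MSC 2 (8.82) and MSC 1 (10.97). Acan, Col9a1, Matn1 and Matn3 were detected on no array. Of 8 bone markers, 4 were detected in untreated in vivo osteocytes, with Bglap at 12.24 and Ibsp at 8.87. In differentiated osteocytes 4 were detected, as on the reprogrammed chondrocyte, reprogrammed osteocyte and MSC 2 arrays. Their summed linear level was 851 in differentiated osteocytes, against 1010 and 1120 in MSC 1 and MSC 2. Bglap (6.95) and Ibsp (5.87) were above both MSC arrays there, and Sp7 (8.99) and Phex (4.48, not detected) below both. Dmp1, Sost and Mepe of osteocytes were detected on no array.

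**Figure D4:**
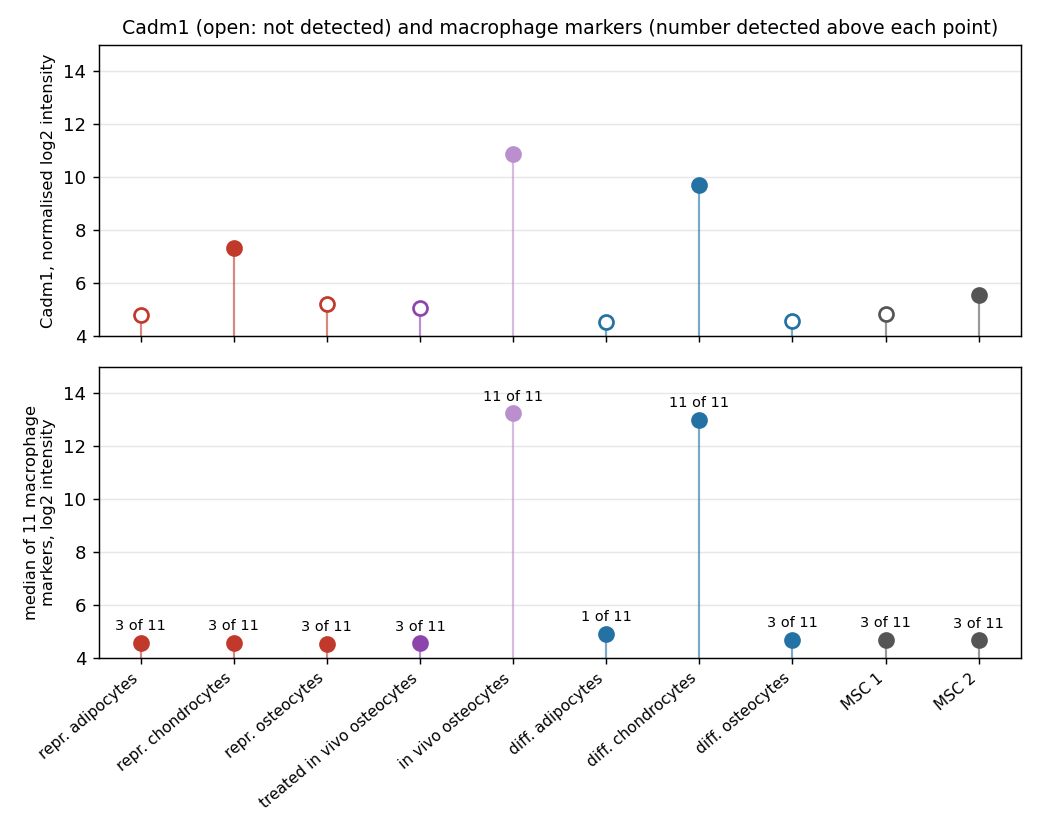
Cadm1 log2 level and the median log2 level of 11 macrophage markers on each of the 10 arrays, with the number of markers detected written above. The markers stand at 13.23 and 12.98 on the untreated in vivo osteocyte and differentiated chondrocyte arrays and at most at 4.91 elsewhere, while Cadm1 is also at 7.31 on the reprogrammed chondrocyte array.

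Genes around the set were read from 3 wider lists. Of all tested probes, 0.276% passed between reprogrammed and differentiated cells. Between differentiated cells and MSC, 0.0165% rose and 0% fell. At such shares, 0 calls in a list this short says nothing about its genes. Of 10 intermediate filament and lamin genes, 7 were tested and 0 passed in either direction between reprogrammed and differentiated cells. Their median difference was 1.30, against 0.01 over all genes. The largest were Lmnb1, a nuclear lamin (3.59 ± 0.83 SE, limma adjusted p 0.11), and Synm, a large filament protein of muscle, lower in reprogrammed cells (-2.49 ± 0.40 SE, limma adjusted p 0.063). Against MSC the differentiated cells had a list median of -1.06, against -0.05 over all genes, again with 0 calls either way.

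Of 26 neurite growth and axonal microtubule genes, 25 had a probe, 16 were detected and 12 were tested, with 0 calls in either direction and a median of 0.79. The largest differences were those of Dpysl3, a growth cone protein that binds tubulin (3.21 ± 0.89 SE, limma adjusted p 0.15), and Stmn1, the widely expressed stathmin (2.11 ± 0.39 SE, limma adjusted p 0.076). In differentiated cells against MSC this list also had 0 calls, with a median of -0.78.

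Of 17 relatives of the surface members, 8 were tested, with 0 calls and a median of -0.26. The largest were Nrcam, a neural adhesion molecule (-1.60 ± 0.47 SE, limma adjusted p 0.16), and Abca1, a lipid exporter linked to engulfment (-1.26 ± 0.39 SE, limma adjusted p 0.17), both lower in reprogrammed cells. Against MSC the differentiated cells had 0 calls and a median of 0.00.

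Genes whose levels ran most like a member over the 10 arrays were ranked by Pearson's r among 10364 genes. Nefm ran closest to Pgap4 (r = 0.955), Hyou1 (0.947), Mpi (0.925), Bnip2 (0.920) and Rims4 (0.914), and Basp1 to Srsf9 (0.891), Nmnat2 (0.880), Pgap4 (0.877), AI987944 (0.872) and Zfp638 (0.868). Nrn1 ran closest to Mthfsd (0.976), Cdk4 (0.973), Elob (0.970), Ckap2 (0.968) and Yipf2 (0.959), and Megf10 to Eno1b (0.969), Stard4 (0.951), Adam10 (0.940), Dck (0.936) and Dhx9 (0.934). For Cadm1 they were AB124611 (0.992), Sh3bp2 (0.971), Stac2 (0.968), Tmem114 (0.967) and Cd93 (0.964). Within the set, Nefm and Basp1 correlated at 0.86, Nefm and Megf10 at 0.74, Nefm and Gap43 at 0.22 and Nefm and Cadm1 at -0.11. All these values describe 10 arrays that share 1 normalisation and only a few classes of cells.

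**Figure D5:**
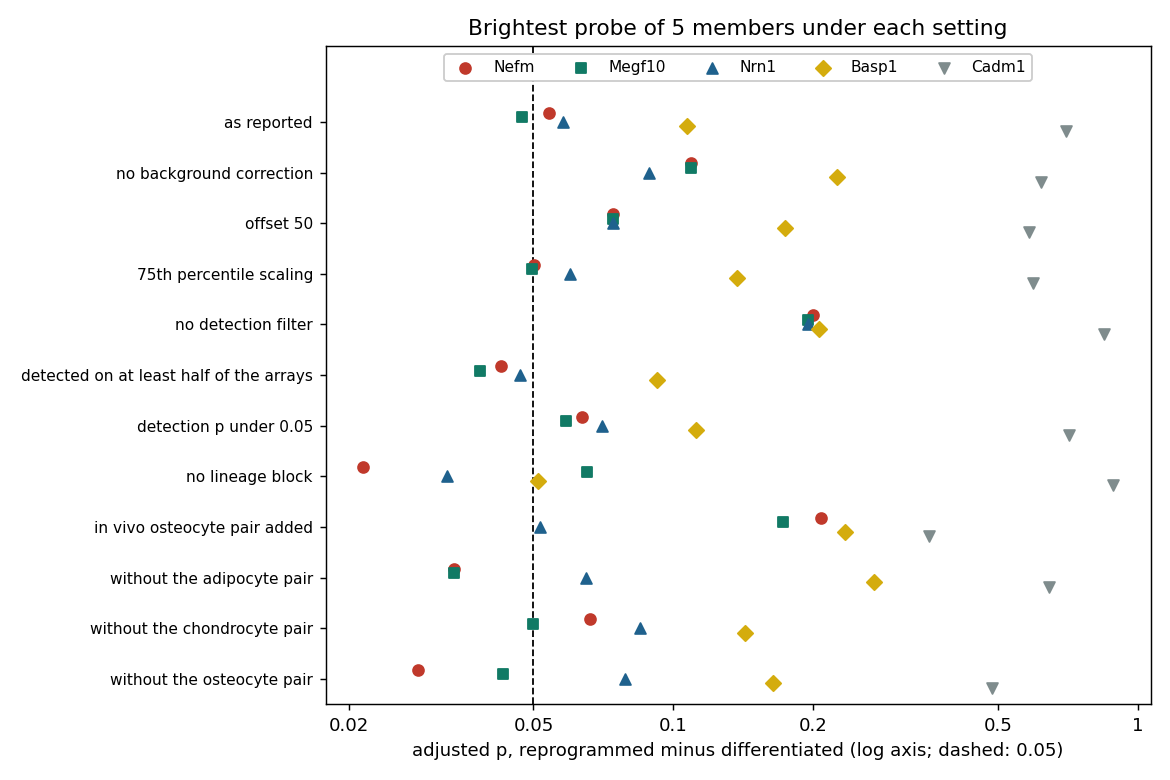
Adjusted limma p (log axis) of the brightest probe of 5 genes in the comparison of reprogrammed with differentiated cells, under the reported setting and each alternative, with a dashed line at 0.05. Megf10 lies between 0.0337 and 0.195, Nefm between 0.0215 and 0.208, Nrn1 between 0.0326 and 0.195, and Basp1 between 0.0512 and 0.270.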

How the data were processed

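Gene levels came from a scanner table of 10 Illumina arrays, 1 per sample, which holds, per the file headers, 45281 probes, each with an intensity and a detection p-value on every array. How the authors made the deposited intensity values is not stated in any label or header used here. On 8 arrays they already shared 1 distribution (mean 538), and the osteocyte pair had others (means 413 reprogrammed and 324 differentiated). The deposited value table, on a log2 scale for the osteocyte pair, matched the scanner table by probe ID only for that pair (Spearman rho 1.00 and 0.998, against -0.00745 to -0.00155 for 8 arrays), and was used only there. Groups came from the labels, and no sample was left out.

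Intensities were corrected by normexp, its background estimated through the detection p-values, given an offset of 16, quantile normalised and put on a log2 scale in limma 3.58.1 (R 4.3.3). Tests used lmFit and eBayes over all probes detected (p under 0.01) on at least 2 arrays of the fit, called at a Benjamini-Hochberg adjusted p under 0.05. Lineage formed the block of the paired test. The in vivo arrays stayed outside the fits. A gene was read from its brightest probe, and every probe of the set is reported. Lower limits of folds set each undetected array to its lowest detected level. Symbols came from the array annotation, in which 34885 probes had 1 symbol, 18 several and 10378 none. The fits were also run on simulated data with independent probes, the same spread for every probe and no lineage effect. That run does not test them under the spread of these data. Alternatives changed the background correction, offset, scaling, detection filter, block and arrays used. The number of arrays limits the precision.

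Members, marker lists and wider lists were chosen with earlier results of these data known. All members were named, with the 5 genes most like each of 5 members, and in each wider list the 2 of largest change.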

Additional observations from a re-analysis of the deposited data

Results flagged for a closer look

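The brightest Nefm probe and both detected Megf10 probes were higher in the reprogrammed array of all 3 pairs and lower in the treated array of the in vivo pair. Nefm (ILMN_2938820) differed by 3.91 in the adipocyte, 3.73 in the chondrocyte and 2.47 in the osteocyte pair, reprogrammed minus differentiated, and by -1.17 between treated and untreated in vivo osteocytes. On ILMN_2689931 Megf10 differed by 3.71 in adipocytes, 2.80 in chondrocytes, 2.96 in osteocytes and -0.68 in the in vivo pair. On ILMN_2840286 it differed by 2.78, 2.09 and 2.41 in those pairs and by -0.24 in vivo. The in vivo pair is 1 array a side, and the difference between it and the other pairs was not tested. Nefm was not detected on the treated in vivo array, so its difference there has a limit of only 1.30-fold. On the 2 Megf10 probes the MSC arrays differed by 2.45 and 2.19, more than the in vivo pair did.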

How the results depend on the processing

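Between reprogrammed and differentiated cells, 49 probes passed as reported. The count was 0 without background correction, 10 with an offset of 50, 0 without a detection filter, 154 with detection on at least 3 of the 6 arrays, 9 at a detection p under 0.05, 344 without the lineage block and 0 with the in vivo pair added. Scaling to the 75th percentile gave 62, with 23 higher and 39 lower against 24 and 25 as reported. Leaving out 1 pair gave 55 to 330 (211 without adipocytes, 55 without chondrocytes, 330 without osteocytes). The brightest Megf10 probe passed under 5 of 11 alternatives, and no tested probe of the set changed sign in this comparison. Basp1 and Cadm1 passed under none of theirs.

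Between differentiated cells and MSC, 3 probes passed as reported, 1 without a detection filter, 0 when only these arrays were fitted, 0 without MSC 1 or without MSC 2, and 0 to 11 when 1 lineage was left out. The sign turned for Nefm without MSC replicate 2 (0.04 on ILMN_2938820 and 0.07 on ILMN_2632416, against -1.63 and -0.97 without MSC replicate 1), and ILMN_1225279 read 0.00 under 75th percentile scaling. No probe of the set passed under any alternative.

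Reprogrammed cells stood above MSC in Nefm by 1.58 without background correction and 2.05 with an offset of 50, and by 1.74 to 3.41 when 1 array was left out. For Basp1 these were 0.37, 0.59 and 0.63 to 1.27. Calls at 2-fold, added up over the single populations so that 1 probe can count in several, numbered 12 higher and 6 lower. The shares of all probes stand with each population above. Without background correction 5 were higher, against MSC 1 alone 22 were higher, and against MSC 2 alone 21 were lower. In the in vivo pair 2 probes were higher and 2 lower, and both counts became 1 without background correction and 1 with an offset of 50. Of the lower, Nefm has a limit of only 1.30-fold. In the value table the osteocyte pair differed by 2.63 for Nefm, 3.88 for Megf10, 2.31 for Nrn1 and 1.54 for Basp1, against 2.47, 2.96, 2.26 and 1.28 in the scanner table. Some other probes differed more between the tables, at 4.08 against 0.93 for Nefm ILMN_1225279, 3.56 against 2.41 for Megf10 ILMN_2840286, 2.86 against 0.15 for Megf10 ILMN_1214887, -2.00 against -0.08 for Megf10 ILMN_2531292 and 2.00 against 0.66 for Cadm1. The reprogrammed and differentiated arrays are paired by lineage in the reported fit, and by replicate number no paired analysis was possible because numbers stand only on the MSC arrays. Limits are the single array per population, the gap between the MSC arrays, levels near background for Basp1, Gap43, Nefl, Ina and Stmn2, and an osteocyte pair deposited on another scale.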
